A study of Mus musculus with 12 samples.

Results

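The genes described here are the NF-κB family and the inhibitors that NF-κB itself induces, measured in cultured mouse oligodendrocyte precursor cells (OPCs). They are 10 of the 45563 gene symbols used in the expression tables and were chosen by name. They comprise the 5 subunits *Nfkb1*, *Nfkb2*, *Rel*, *Rela* and *Relb*, the IκB inhibitors *Nfkbia* and *Nfkbie*, the nuclear IκB proteins *Nfkbiz* and *Bcl3*, and *Tnfaip3*, which encodes A20. All 10 were present in every library and passed the filter on low values. OPCs were taken with anti-PDGFRα beads from cortices of C57BL/6 pups, aged postnatal days 2 to 5 by the labels, and grown for 3 days with PDGF-AA and FGF2. WT cells and cells labelled TNFR2-/-, from mice lacking the receptor in every cell, were either non-stimulated (NS, PBS vehicle) or stimulated (St) for 3 h with TNF, IFNγ and IL1β at 25 ng/mL each. Each of the 4 groups held 3 libraries, numbered 2, 3 and 4 in WT and 2, 4 and 5 in TNFR2-/-, and values below are given in that order.

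NF-κB is a set of dimers built from RelA, c-Rel and RelB, which carry activation domains, and from the DNA-binding proteins made by processing of the *Nfkb1* and *Nfkb2* products. In resting cells IκB proteins hold the dimers in the cytoplasm. TNF and IL1β activate the IκB kinase (IKK), which marks IκBα for destruction and frees the dimers. Released NF-κB turns on its own inhibitors, among them IκBα and A20, a feedback that limits the response. In oligodendrocyte lineage cells the pathway is known for its part in inflammatory signaling and survival.

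Library totals, recovered from the values, ranged from 26886878 to 30335265 reads. *Tnfrsf1b*, the gene deleted in the TNFR2-/- line, was read 12 to 24 times per library in WT NS but 213 to 346 times in the NS libraries labelled TNFR2-/-, and 61 to 145 against 282 to 356 times after stimulation. It was thus higher in the libraries labelled as lacking it, a gene total does not show which exons were read, and every direction between genotypes below follows the labels. Other measurements by which the study checked its cells were not analysed here. The 8 OPC markers summed to between 8575 and 9953 RPM (reads scaled by library total) in NS and between 7115 and 8194 in St libraries. The 14 microglia markers summed to 9.94 to 13.1 RPM, with *Cx3cr1*, *Aif1*, *C1qa*, *C1qb*, *C1qc*, *Fcrls*, *Tyrobp* and *Ptprc* at no more than 3 reads in any library. Astrocyte markers, 8 genes, summed to 1830 to 2207 RPM in WT and to 2752 to 4396 in TNFR2-/- libraries. Neuron markers, 7 genes, went in sum from between 108 and 149 RPM in NS to between 465 and 553 in St libraries, with 1 gene called up and 1 down in each genotype, and the part of these cells in the results on stimulation was not tested.

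The first question was which of these genes OPCs upregulate after cytokine exposure. All 10 were called upregulated in both genotypes, by 1.58-fold (*Rela*) to 60.8-fold (*Bcl3*) in WT and by 1.64-fold to 43.3-fold, for the same 2 genes, in TNFR2-/- OPCs. A call required an adjusted p of at most 0.05, a fold of at least 1.5 and a mean of at least 1 FPKM. FPKM, the unit of the tables, is reads scaled by library total and by a divisor per gene that did not follow gene length. Among all 18081 genes tested, 4.58% were called upregulated in WT and 5.41% in TNFR2-/-. The groups did not overlap for any of the 10, with St above NS, against 13.7% of all genes in WT and 12.7% in TNFR2-/-. The median log2 fold change of the 10 was 2.38 in WT and 2.497 in TNFR2-/-, beside −0.05 and −0.11 over all genes tested. In these bulk libraries more RNA per cell and more cells that express a gene cannot be told apart.

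**Figure D1:**
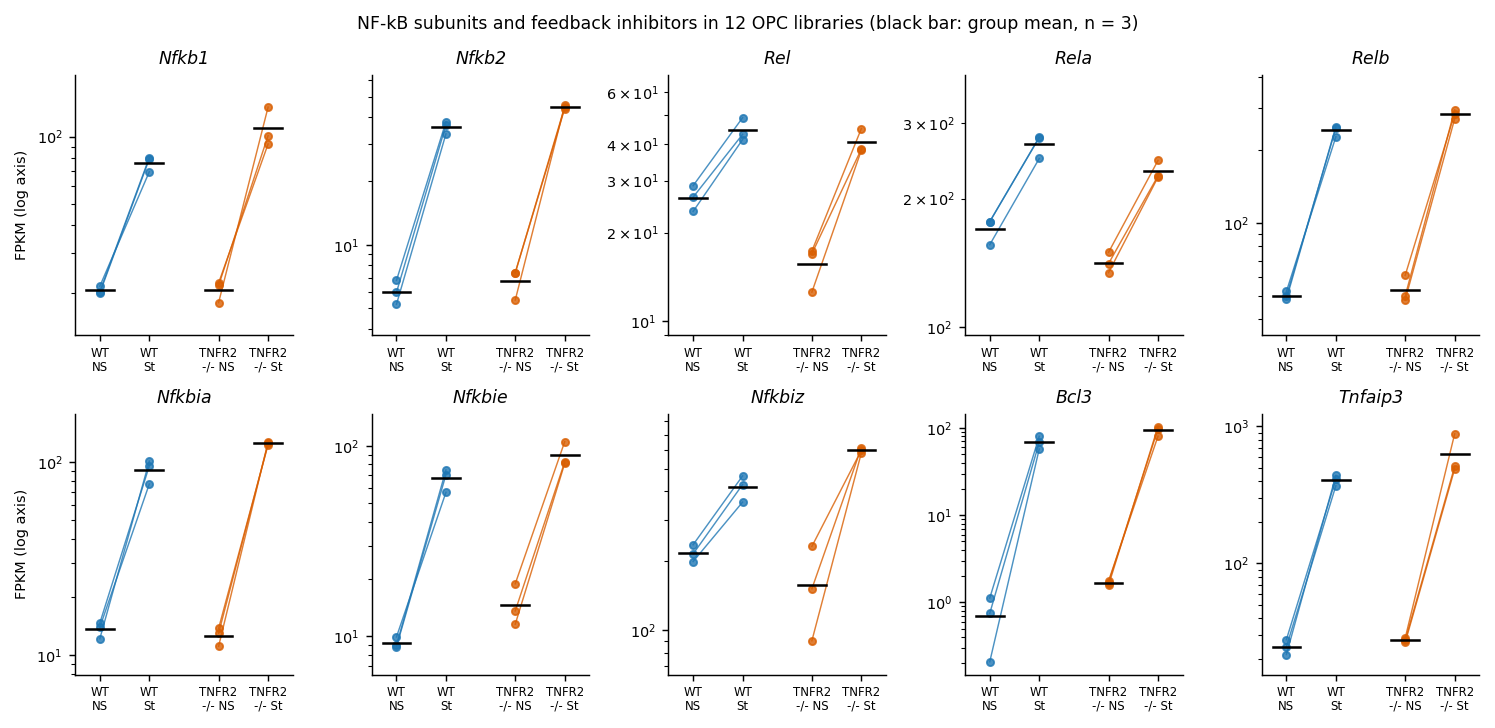
Level of each gene in FPKM (log axis) in the 12 libraries, with lines joining the NS and St libraries of one culture number and black bars for group means (n = 3). Every line rises, and the NS and St points do not overlap for any gene.

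Gene positions are on GRCm38. Among the subunits, *Relb* (ENSMUSG00000002983, chr7:19606217-19629438, minus strand), whose product pairs with the processed *Nfkb2* protein, stood at 48.4, 52.1 and 49.7 FPKM in WT NS and at 251, 227 and 247 FPKM in WT St. In TNFR2-/- it went from 48.1, 60.8 and 49.9 to 270, 283 and 294 FPKM. The log2 fold change was 2.26 ± 0.08 (SE) in WT and 2.41 ± 0.08 in TNFR2-/- (limma, adjusted p = 2.8e-08 and 1.7e-08). The responses of *Relb* differed between genotypes by 0.15 ± 0.12 (SE), and its NS values overlapped.

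*Nfkb2* (ENSMUSG00000025225, chr19:46304320-46312385, plus strand) encodes p100, the precursor that holds RelB in the cytoplasm until it is processed. Its level was 6.79, 5.23 and 5.96 FPKM in WT NS and 38.2, 33.5 and 36.8 FPKM in WT St. TNFR2-/- values were 7.38, 7.38 and 5.48 FPKM before and 44.1, 44.9 and 45.6 FPKM after stimulation. Upregulation was 5.67-fold in WT and 6.31-fold in TNFR2-/- (limma, adjusted p = 1.7e-07 and 9.8e-08). On the other strand, exons of *Psd* share 6.52% of the *Nfkb2* exon bases and those of the noncoding *AC114539.1* share 11.6%. Reads there cannot be assigned without strand.

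*Nfkb1* (ENSMUSG00000028163, chr3:135584655-135691547, minus strand), the source of the partner that most RelA dimers use, went from 19.9, 21.4 and 20.2 FPKM to 79.6, 69.6 and 80.5 FPKM in WT. In TNFR2-/- it went from 21.5, 22.1 and 18.0 FPKM to 101, 92.7 and 136 FPKM. The rise was 3.66-fold in WT and 5.19-fold in TNFR2-/- (limma, adjusted p = 3.4e-06 and 4.8e-07), and library 5 was both the lowest NS and the highest St value of its genotype.

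*Rel* and *Rela* moved least among the subunits. *Rel* (ENSMUSG00000020275, chr11:23736847-23770970, minus strand), which encodes c-Rel, measured 23.6, 28.8 and 26.4 FPKM in WT NS and 41.3, 49.0 and 43.0 FPKM in WT St, a 1.68-fold rise (limma, adjusted p = 0.0027). From 17.0, 17.3 and 12.6 FPKM it reached 38.4, 45.0 and 38.0 FPKM in TNFR2-/-, a 2.56-fold rise (limma, adjusted p = 3.1e-05). *Rela* (ENSMUSG00000024927, chr19:5637483-5648130, plus strand), encoding the main transactivating subunit, was at 156, 177 and 177 FPKM in WT NS and at 248, 278 and 278 FPKM in WT St. Its TNFR2-/- values were 141, 150 and 134 FPKM before and 226, 246 and 224 FPKM after. The *Rela* change was 1.58-fold and 1.64-fold (limma, adjusted p = 0.00011 and 4.7e-05), both close to the 1.5-fold needed for a call.

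Both cytoplasmic inhibitors rose in each genotype. *Nfkbia* (ENSMUSG00000021025, chr12:55489410-55492647, minus strand), which encodes IκBα, was at 12.1, 13.9 and 14.6 FPKM in WT NS and at 101, 77.1 and 95.6 FPKM in WT St. In TNFR2-/- it climbed from 13.7, 13.0 and 11.1 FPKM to 123, 125 and 127 FPKM. These are rises of 6.502-fold and 9.63-fold (limma, adjusted p = 6.7e-08 and 1.6e-08). *Nfkbie* (ENSMUSG00000023947, chr17:45555703-45563169, plus strand), encoding IκBε, a slower inhibitor, was at 8.84, 9.94 and 8.99 FPKM in WT NS and at 70.7, 57.1 and 74.8 FPKM in WT St. TNFR2-/- cultures held 11.6, 13.6 and 18.9 FPKM without and 81.03, 82.5 and 105 FPKM with cytokines. The rises were 6.94-fold and 6.00-fold (limma, adjusted p = 1.1e-06 and 1.9e-06), so that the estimate, unlike that of *Nfkbia*, was no larger in TNFR2-/-.

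The nuclear IκB genes differed in level and in the size of their rise. *Bcl3* (ENSMUSG00000053175, chr7:19808462-19822770, minus strand), a co-regulator of dimers without an activation domain, had only 12, 2 and 8 reads in WT NS and 18, 19 and 17 reads in TNFR2-/- NS. After stimulation it had 859, 614 and 735 reads in WT and 1047, 866 and 1059 reads in TNFR2-/-. Its log2 fold change on the log2(FPKM + 0.5) scale was 5.93 ± 0.25 (SE) in WT and 5.44 ± 0.25 in TNFR2-/- (limma, adjusted p = 7.5e-08 and 1.1e-07), the 32nd and the 53rd largest of all genes. With so few NS reads the size depends on the pseudocount, and on the recovered reads it was 6.74 and 5.77. Exons of *Gm16175* (mean of 2.33 reads) on the other strand share 6.51% of the *Bcl3* exon bases, where reads likewise cannot be assigned without strand. *Nfkbiz* (ENSMUSG00000035356, chr16:55811375-55838899, minus strand), which encodes IκBζ, an activator of secondary response genes, was at 234, 198 and 214 FPKM in WT NS and reached 465, 358 and 426 FPKM. In TNFR2-/- it went from 151, 230 and 89.97 FPKM to 616, 600 and 585 FPKM. The coefficient of variation of the TNFR2-/- values was 44.8% in NS and 2.60% in St libraries. The rise was 1.93-fold in WT and 4.09-fold in TNFR2-/- (limma, adjusted p = 0.030 and 0.00024). The WT call of *Nfkbiz* was lost, at adjusted p = 0.062 to 0.10, without a filter on low values and without any 1 of the WT libraries other than WT St 3.

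*Tnfaip3* (ENSMUSG00000019850, chr10:19000910-19015657, minus strand) encodes A20, a ubiquitin-editing enzyme that shuts off signaling upstream of IKK. It went from 21.7, 24.7 and 27.8 FPKM to 439, 369 and 412 FPKM in WT, and from 27.4, 26.5 and 28.5 FPKM to 510, 488 and 882 FPKM in TNFR2-/-. Log2 fold changes were 4.02 ± 0.19 (SE) and 4.43 ± 0.19 (limma, adjusted p = 1.6e-07 and 7.4e-08), which rank the gene 84th and 85th among all genes. The high St value of library 5 in TNFR2-/- contributed to the second, which was 4.16 without that library.

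**Figure D2:**
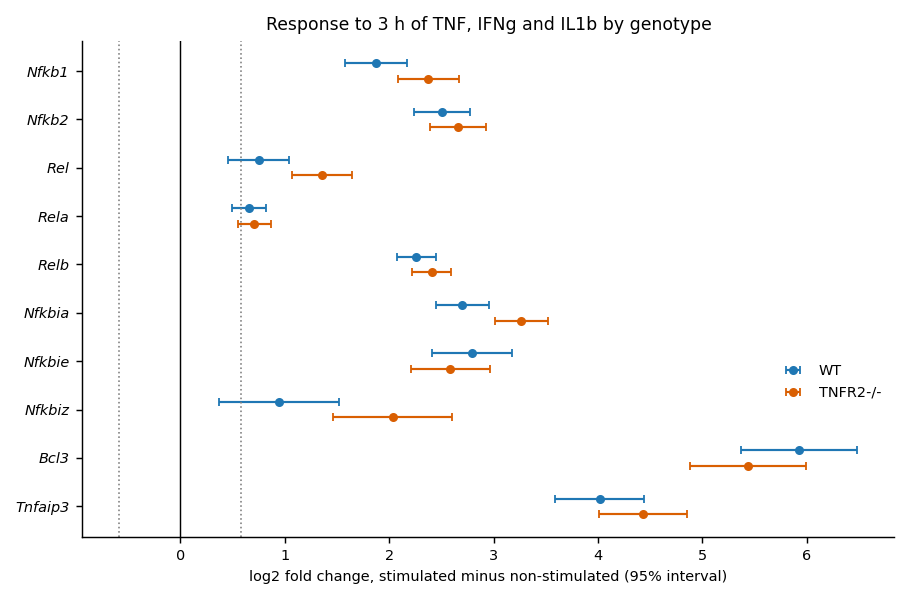
Log2 fold change of St over NS for each gene in WT (blue) and TNFR2-/- (orange) OPCs, with 95% intervals from the limma fit, and dotted lines at 1.5-fold. *Bcl3* and *Tnfaip3* lie farthest to the right and *Rela* nearest to the threshold in both genotypes.

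Promoters of the 10 genes were searched for the NF-κB consensus motif, a sequence of 10 letters, on both strands. RefSeq promoter windows (GRCm38.p6, 250 bases before to 50 bases after a start) matched 7 of the 10 symbols, namely *Nfkb2*, *Rel*, *Rela*, *Nfkbia*, *Nfkbie*, *Bcl3* and *Tnfaip3*. *Nfkb1*, *Relb* and *Nfkbiz* had no entry. At least 1 NF-κB match was found for 6 of the 7, whereas 5.14% of all 27025 symbols had one in any of their windows. The members were chosen by name, in part as inhibitors that NF-κB induces, so this contrast follows from the choice and not from the expression values. These matches are descriptions of letters and were not tested for binding. The 250 bases before the start are printed for *Nfkbia* and *Tnfaip3*, the best known feedback genes, for *Nfkb2*, which has the most matches, and for *Rela*, the subunit with the smallest rise and no match. Capitals mark NF-κB matches on either strand.
Nfkbia, chr12:55492648-55492897, minus strand: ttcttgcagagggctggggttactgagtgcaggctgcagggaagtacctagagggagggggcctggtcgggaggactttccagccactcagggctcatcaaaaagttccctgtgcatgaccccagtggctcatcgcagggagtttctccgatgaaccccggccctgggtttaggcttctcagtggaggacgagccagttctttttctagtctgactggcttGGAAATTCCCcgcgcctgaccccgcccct
Tnfaip3, chr10:19015411-19015660, minus strand: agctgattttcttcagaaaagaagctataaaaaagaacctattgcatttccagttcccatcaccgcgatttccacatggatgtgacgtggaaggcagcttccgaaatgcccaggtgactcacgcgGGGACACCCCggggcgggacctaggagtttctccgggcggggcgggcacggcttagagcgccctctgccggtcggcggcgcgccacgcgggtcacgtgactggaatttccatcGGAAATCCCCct
Nfkb2, chr19:46304487-46304736, plus strand: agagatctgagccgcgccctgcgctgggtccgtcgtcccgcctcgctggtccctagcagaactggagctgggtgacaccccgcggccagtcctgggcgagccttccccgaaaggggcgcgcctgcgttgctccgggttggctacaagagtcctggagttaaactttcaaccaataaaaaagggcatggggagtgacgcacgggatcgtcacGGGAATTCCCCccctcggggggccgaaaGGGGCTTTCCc
Rela, chr19:5637291-5637540, plus strand: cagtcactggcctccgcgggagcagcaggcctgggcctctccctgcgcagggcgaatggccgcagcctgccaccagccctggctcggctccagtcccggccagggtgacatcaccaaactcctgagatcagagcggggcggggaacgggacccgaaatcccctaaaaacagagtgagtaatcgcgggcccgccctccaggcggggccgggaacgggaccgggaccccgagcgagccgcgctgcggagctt

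The *Nfkbia* match begins 29 bases before the start, and those of *Tnfaip3* begin 125 and 12 bases before it. *Nfkb2* carries 2 overlapping matches that begin 39 and 38 bases before the start and 1 more at 11 bases. RefSeq gives *Nfkb2* 2 further windows at later starts, which also hold matches, and *Tnfaip3* 1 further window without a match. The other members with a match are shown as 30 bases around it, because their rises span the range from *Rel* to *Bcl3*.
Rel, chr11:23771041-23771070, minus strand: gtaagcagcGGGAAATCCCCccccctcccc
Nfkbie, chr17:45555584-45555613, plus strand: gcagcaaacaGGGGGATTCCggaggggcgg
Bcl3, chr7:19822734-19822763, minus strand: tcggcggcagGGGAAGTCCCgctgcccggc

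In *Rel*, overlapping matches begin 92 and 91 bases before the start, and the *Nfkbie* match begins 106 bases before it. The *Bcl3* match begins at the third base after the start.

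Levels of different genes were compared per length, as RPKM over the longest principal transcript, since the divisor behind the FPKM did not follow gene length. By median, *Rela* was highest in WT NS at 32.7, followed by *Nfkbia* at 26.7 and *Nfkbiz* at 21.9, and *Bcl3* was lowest at 0.144. *Nfkbia* and *Nfkbiz* overlapped, and all other neighbors in the WT NS order were apart. After stimulation *Nfkbia* led in WT at 183 (148 to 194) and in TNFR2-/- at 239 (236 to 244), well above every other member. *Rel* was last in both, at 3.79 and 3.38. In TNFR2-/- St the levels of *Relb*, *Nfkb1*, *Nfkb2* and *Rela* fell between 41.6 and 60.9, and of their pairs only *Relb* and *Nfkb2* were apart, with *Relb* higher. Lengths of all exons joined gave the same first and last gene in these groups but moved *Nfkb1* down by 2 or 3 places in each. They also changed which genes were apart. In TNFR2-/- St *Nfkb2* (28.9 to 29.9) then lay above *Relb* (25.0 to 27.3), the reverse order, and *Rela* (36.8 to 40.2) above both. In WT NS *Rela* (25.6 to 28.9) then overlapped *Nfkbia* (22.8 to 27.5), and *Nfkbia* was apart from *Nfkbiz* (16.6 to 19.6).

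The makeup of the subunit mRNAs shifted with stimulation. On this per length scale *Rela* made up 53.2% to 56.5% of the 5 subunit levels in WT NS and 28.2% to 33.0% in WT St. It made up 49.4% to 52.4% in TNFR2-/- NS and 21.1% to 25.2% in TNFR2-/- St. Thus no 2 of these 4 ranges overlapped, and the *Rela* share was lower in the libraries labelled TNFR2-/- under both conditions. *Nfkb2* took up 8.58% to 11.96% of the subunit levels in WT NS and 20.5% to 22.4% in WT St, and *Relb* 14.03% to 14.6% and 23.8% to 25.2%. The sum of the 5 rose from between 54.3 and 58.4 to between 156 and 167 in WT, and from between 47.5 and 56.2 to between 177 and 197 in TNFR2-/-. *Nfkbia* was at 0.805 to 0.857 of the *Rela* level in WT NS and at 2.86 to 4.22 in WT St. In TNFR2-/- the ratio went from between 0.853 and 1.01 to between 5.26 and 5.86, so that the genotypes were apart after stimulation and overlapped narrowly before it. With all exons joined the shares of *Rela* were higher, at 64.5% to 67.5% in WT NS and 31.1% to 35.2% in TNFR2-/- St, in the same order of medians, but WT NS and TNFR2-/- NS then overlapped. These shares are described and were not tested.

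**Figure D3:**
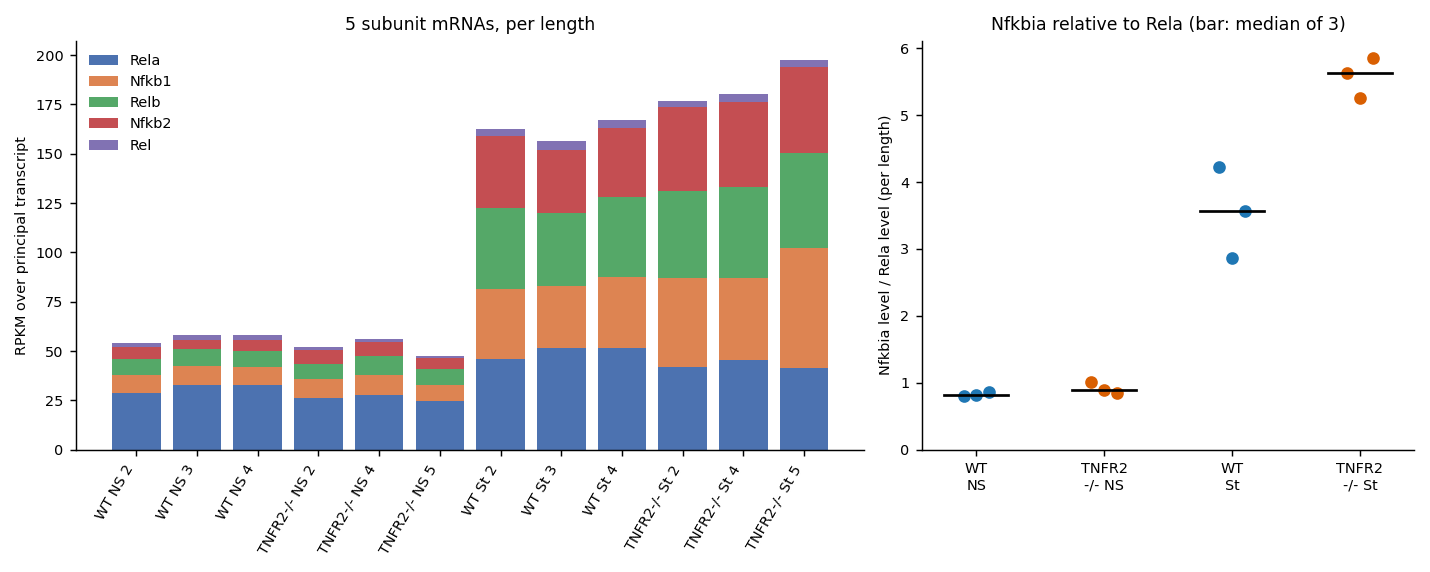
Left, levels of the 5 subunit mRNAs per length, stacked for each library, in RPKM over the principal transcript. Right, *Nfkbia* level divided by *Rela* level in each library, with bars for medians of 3, which are 0.815, 0.895, 3.56 and 5.63 from left to right.

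The second question was whether OPCs labelled TNFR2-/- differed from WT without stimulation. *Rel* was called lower, and *Nfkbie* and *Bcl3* higher, which is 3 of the 10 beside 2.9% of all genes called in either direction. The groups did not overlap for 4 of the 10, where 34.2% of all genes did not. *Rel* fell by 0.74 ± 0.13 on the log2 scale (SE, limma, adjusted p = 0.016), from 23.6 to 28.8 FPKM in WT to 12.6 to 17.3 FPKM. *Nfkbie* was 1.53-fold higher (limma, adjusted p = 0.047), with all 3 TNFR2-/- values above the highest WT value. *Bcl3* was 0.94 ± 0.25 higher on the log2 scale (limma, adjusted p = 0.041), on 17 to 19 reads a library against 2 to 12. *Rela* was lower in every TNFR2-/- library, by 0.26 on the log2 scale (limma, adjusted p = 0.047), a change under 1.5-fold and hence not called.

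These calls of the NS comparison were fragile. None of the 3 was made in a fit of the 6 NS libraries alone, in which 7 genes of the whole table were called, nor without WT NS 3 or without WT NS 4. Without TNFR2-/- NS 5 *Rel* alone was called, at a log2 difference of −0.60. On the recovered reads (voom) *Rel* alone was called. The remaining 6 did not pass, with log2 differences between −0.55 (*Nfkbiz*) and 0.16 (*Tnfaip3*). For *Nfkb1* the difference was −0.00 with a 95% interval from −0.29 to 0.29, and for *Nfkbia* −0.10 with an interval from −0.35 to 0.15. Astrocyte marker sums, which were above WT in every TNFR2-/- library, moved with this comparison, and their part in it was not tested.

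With stimulation, the third comparison, the libraries labelled TNFR2-/- stood above WT for most of the 10 genes by a modest amount. The groups did not overlap for 9 of the 10, with 8 higher and *Rela* lower, beside 32.7% of all genes in either direction. None of the 10 was called (limma), where 1.8% of all genes were, and 7 had an unadjusted p under 0.05, beside 26.7% of all genes. The voom fit called none either. In it *Nfkbia* and *Nfkb1* missed the fold threshold alone, with log2 differences of 0.46 and 0.50 (voom, adjusted p = 0.022 and 0.033). *Nfkbia* came nearest, 0.46 ± 0.11 higher on the log2 scale (SE, limma, adjusted p = 0.045), below the 1.5-fold needed. *Nfkb1* was 0.50 ± 0.13 higher (limma, adjusted p = 0.054), *Tnfaip3* 0.57 ± 0.19 (0.095), *Nfkbiz* 0.54 ± 0.26 (0.21) and *Bcl3* 0.45 ± 0.25 (0.28). *Nfkbie*, *Nfkb2* and *Relb* were 0.40, 0.31 and 0.22 higher. *Rela* was 0.21 lower, with an interval from −0.37 to −0.05, and *Rel* was 0.13 lower with overlapping groups. The median of the 10 was 0.43, against −0.00 over all genes tested. Over 24 alternative settings the adjusted p of *Nfkbia* ranged from 0.022 to 0.15 and that of *Nfkb1* from 0.033 to 0.18.

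Library 5 of TNFR2-/- St gave the highest value of its group for 7 of the 10 genes. Without it the *Nfkb1* difference was 0.34 in place of 0.50, and that of *Tnfaip3* was 0.30 in place of 0.57, while that of *Nfkbia* stayed at 0.45. WT St 3 was the lowest of its group for 8 of the 10, and without it the *Nfkbia* difference was 0.34 (limma, adjusted p = 0.15). Without TNFR2-/- St 4, on the other hand, *Nfkb1* was called, at a difference of 0.61 (limma, adjusted p = 0.038). Astrocyte marker sums were 1830 to 1900 RPM in WT St and 2818 to 4388 in TNFR2-/- St, and their part in the genotype difference was not tested.

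**Figure D4:**
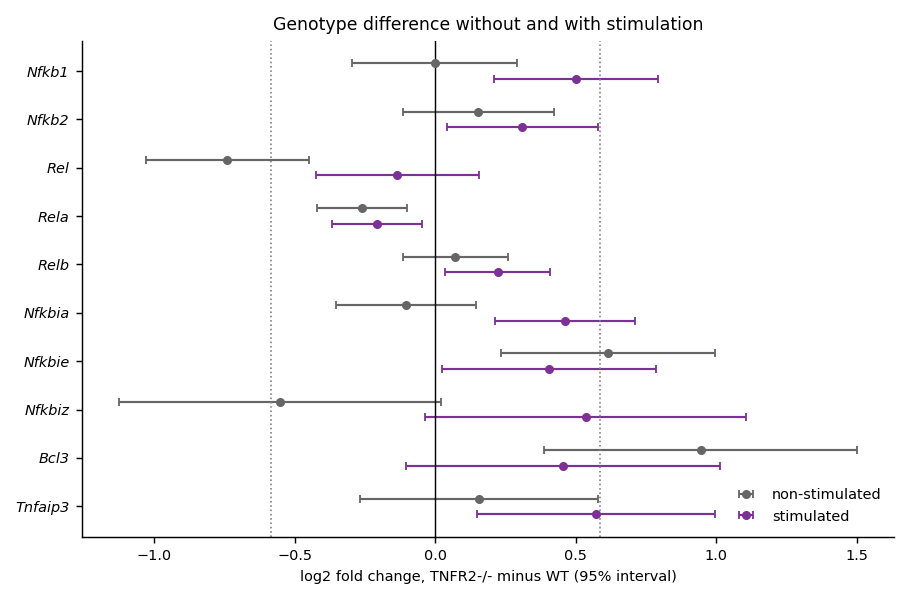
Log2 fold change of TNFR2-/- over WT for each gene without (grey) and with (purple) stimulation, with 95% intervals from the limma fit and dotted lines at 1.5-fold. *Rel* lies to the left and *Nfkbie* and *Bcl3* to the right without stimulation, and 8 of the 10 lie to the right with it.

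Whether the response itself differed by genotype was tested as the interaction of genotype and stimulation. None of the 10 passed (limma), where 0.00553% of all genes, a single gene, did, and the voom fit called none. At an unadjusted p under 0.05, met by 7.95% of all genes, there were 4, namely *Nfkbiz*, *Rel*, *Nfkbia* and *Nfkb1*, with interaction terms of 1.09 ± 0.36 (SE), 0.61 ± 0.18, 0.57 ± 0.16 and 0.50 ± 0.19 on the log2 scale and adjusted p (limma) of 0.54, 0.51, 0.50 and 0.56. The terms of *Bcl3* and *Nfkbie* were −0.49 ± 0.36 and −0.21 ± 0.24. The median of the 10 was 0.29, against −0.05 over all genes tested.

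NS and St libraries of the same number within a genotype deviated together from their group means, so a response could be computed for each of the 6 cultures. All 10 genes rose in 6 of 6 cultures. For *Nfkbiz* the log2 response was 0.99, 0.85 and 0.995 in WT cultures and 2.02, 1.38 and 2.69 in TNFR2-/- cultures. For *Rel* it was 0.80, 0.76 and 0.70 against 1.15, 1.35 and 1.56, and for *Nfkbia* 3.01, 2.43 and 2.67 against 3.12, 3.22 and 3.46. *Nfkb1* and *Rela* were likewise above WT in every TNFR2-/- culture, *Rela* by 0.05 on average. The level reached was not higher for *Rel* and *Rela*, whose log2 differences of TNFR2-/- St from WT St were −0.13 and −0.21. For the 5 genes named so far the exact two-sided permutation test gave p = 0.1, the smallest that 3 against 3 cultures allow, and 0.2 after adjustment over the 10. For the interaction, a limma fit with a block for each culture gave adjusted p of 0.13 (*Nfkbiz*), 0.097 (*Rel*) and 0.14 (*Nfkbia*). Those of *Nfkb1* and *Rela* were 0.25 and 0.48, and none of the 10 was called. For *Nfkb2*, *Relb*, *Nfkbie*, *Bcl3* and *Tnfaip3* the cultures of the genotypes overlapped (exact p = 0.2 to 0.6). Culture 5 had the largest response of the TNFR2-/- cultures for 9 of the 10 genes. Without both of its libraries, left out after its values were seen, the interaction terms of *Nfkbiz*, *Rel*, *Nfkbia* and *Nfkb1* were 0.76, 0.50, 0.47 and 0.25.

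**Figure D5:**
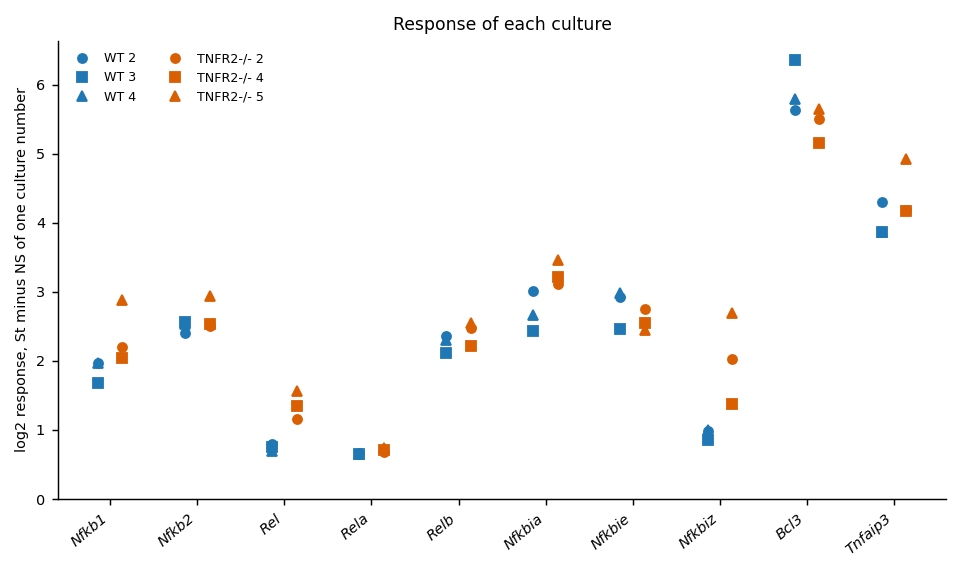
Log2 response, the St minus the NS value of log2(FPKM + 0.5) for libraries of one culture number, for 3 WT (blue) and 3 TNFR2-/- (orange) cultures. The TNFR2-/- cultures lie above all WT cultures for *Nfkb1*, *Rel*, *Rela*, *Nfkbia* and *Nfkbiz* and overlap them for the others.

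Other genes of the pathway were taken from textbook lists, chosen with earlier results of these data known. Of 4 further IκB family genes, *Nfkbib*, which encodes IκBβ, was called upregulated in both genotypes, 2.23-fold in WT and 1.83-fold in TNFR2-/-, and *Nfkbid*, *Ankrd42* and *Nfkbil1* were not. Of 16 genes of the IKK complex and the kinases above it, 5 were called upregulated in each genotype and none downregulated, although *Tab3* was 0.36 lower in WT and *Tab1* 0.51 lower in TNFR2-/- on the log2 scale (limma, adjusted p = 0.044 and 0.019), under the 1.5-fold needed. These were *Ripk1*, the kinase scaffold at the TNF receptor (4.47-fold and 4.27-fold), *Map3k8*, a kinase held by p105 (4.41-fold and 6.61-fold), *Irak2* of the IL1 receptor complex (3.78-fold and 6.18-fold), *Map3k14*, which encodes NIK (2.17-fold and 2.90-fold), and *Tbk1* (1.58-fold and 1.73-fold). The list median was 0.19 in WT and 0.12 in TNFR2-/- on the log2 scale, so most of its genes, including the IKK subunits *Chuk*, *Ikbkb* and *Ikbkg*, were not called.

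Of 17 other negative regulators, 16 were tested, and 4 were called upregulated in WT and 5 in TNFR2-/-. In each genotype 11 had a log2 fold change above 0. They include *Sharpin*, not called, whose product is a subunit of the linear ubiquitin ligase and not a negative regulator of that kind. *Tnip1*, whose product binds A20, rose 4.17-fold and 4.28-fold, *Zc3h12a*, an RNase that cuts inflammatory mRNAs, 4.16-fold and 4.81-fold, *Tnip2* 2.34-fold and 1.99-fold and *Nkrf* 2.23-fold and 2.17-fold. *N4bp1* was called in TNFR2-/- alone, at 1.51-fold, and the difference between genotypes was not called. Of 10 genes of the linear ubiquitin ligase and the IκB-degrading machinery, *Rnf31*, which encodes the catalytic HOIP, rose 3.20-fold and 2.67-fold. *Btrc*, which encodes the βTrCP protein that recognizes phosphorylated IκB, fell by 0.59 on the log2 scale in each genotype.

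The list of 30 known NF-κB target genes held 28 that were tested, of which 22 were called upregulated in each genotype and none downregulated. The median log2 fold change of the 28 was 3.29 in WT and 3.92 in TNFR2-/-. *Cxcl10* and *Cxcl1*, chemokines for T cells and neutrophils, rose by 10.20 and 8.65 on the log2 scale in WT, and *Ccl5* by 7.48. In TNFR2-/- the same chemokines rose by 9.34, 8.22 and 8.69. In the NS comparison *Cxcl10* (2.87-fold) and *Irf1* (1.58-fold) were called higher in TNFR2-/-, with the kinase adaptor *Tab1* (1.76-fold) and *Irak4* (1.54-fold) from the kinase list. After stimulation no gene of any of the 5 lists was called between genotypes (limma), nor in the interaction. In the St comparison 7 target genes had an unadjusted p under 0.05, with a list median of 0.28, and in the interaction 5 had, with a median of 0.08. The first count, 25% of the 28, was near the 26.7% of all genes, and the second was 17.9% beside 7.95%.

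For each member the genes with the most similar profile over the 12 libraries were found by Pearson correlation of log2(FPKM + 0.5). These values describe libraries that share the contrast of NS and St, and 7 of the 10 members had more than 300 genes above 0.95. *Nfkb1* was most like *Fam26f* and *Il6* (r = 0.998 and 0.997), *Nfkb2* like *Ccl2* and *Rnf19b* (0.999 and 0.998), and *Relb* like *Ripk2* and *Iigp1* (0.998 and 0.997). *Tnfaip3* was nearest to *H2-Q4* and *Gbp5* (both 0.998), *Bcl3* to *Cdc42ep2* and *Tapbp* (both 0.997), *Nfkbia* to *Fst* and *Ripk2* (both 0.996), and *Nfkbie* to *Gm4841* and *Lap3* (0.99). *Rela* was nearest to *Itpkc* and *Furin* (0.99) and *Rel* to *Lancl3* and *Hipk1* (0.99). *Nfkbiz* stood apart, with *Rgs16* (0.98) among its closest genes and 19 genes above 0.95, against 445 for *Tnfaip3*. Among the members the lowest correlation was between *Rel* and *Nfkbie* (0.75) and the highest between *Relb* and *Nfkbia* (0.99), over 12 libraries.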

How the data were processed

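Members and gene lists were chosen with earlier results of these data known. For the deposited tables the authors trimmed paired reads (Trim Galore), mapped and counted them with STAR on GRCm38, and called genes with edgeR; strand handling is not given in the sources used here. The methods name a BGISeq-500 platform and the labels Illumina protocols. The deposited values are FPKM made by the authors, in 1 table for NS and 1 for St libraries, which share 45792 entries. Symbols occurring more than once (229 entries) were left out. Whole reads were recovered for 26634 of 26636 genes (tolerance 0.01 reads). The divisor of the FPKM was unrelated to exon length (Spearman 0.0099 over 16009 genes), so FPKM compare libraries and not genes.

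Group means of log2(FPKM + 0.5) over the 12 libraries were fitted in limma (version 3.58.1, R 4.3.3), the prior depending on the mean level. The pseudocount shrinks folds of low genes by an amount that depends on the divisor of each gene, so ranks of fold change across genes depend on it too. Testing was limited to genes averaging 0.1 FPKM or more, and p-values were adjusted over all 18081 by Benjamini-Hochberg. Figure legends of the study give 3 independent experiments, but nothing states that libraries came from separate animals, so p-values measure the spread between libraries. The procedure was tested on simulated data. Exact permutation tests were two-sided. Marker, target and pathway lists are textbook lists. Genes named from them were the calls of largest fold, up to 3 in each direction, or any call of a list with 5 or fewer. *Nfkbid*, *Ankrd42*, *Nfkbil1*, *Chuk*, *Ikbkb*, *Ikbkg*, *Tab3*, *Sharpin* and, for stimulation, *Tab1* were named after their values were seen. Of the other marker lists, mural and fibroblast (75.5 to 871 RPM in sum), endothelial (28.5 to 63.1) and mature oligodendrocyte (275 to 817) markers overlapped between groups. Positions are from GENCODE M21 and RefSeq on GRCm38. One profile neighbor of *Nfkbiz* and a search for a further promoter motif are not reported here.

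Same-numbered NS and St libraries correlated at 0.34 to 0.65 within a genotype after group means were removed (6 pairs, 13554 genes), against −0.45 to 0.09 for other numbers, so numbers pair libraries within a genotype and, at −0.08 to 0.20, not across genotypes. Alternatives were pseudocounts of 0.1 and 1, other filters, scalings, weights and priors, 6-library fits, voom on recovered reads, other thresholds, replicate blocks and each library left out.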

Additional observations from a re-analysis of the deposited data

How the results depend on the processing

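All 10 genes kept their direction after stimulation in both genotypes under every alternative run, and 7 to 10 remained called in WT and 9 to 10 in TNFR2-/-, the lowest counts coming from a required fold of 2. The replicate block within genotype changed no call of a member, and 10 of the 10 were called in each genotype with it. The p-values given per gene for stimulation are from the fit without this block. With it the adjusted p (limma) in WT was higher for *Nfkb1* (0.00023 against 3.4e-06) and lower for *Rela* (1.2e-05 against 0.00011). In TNFR2-/- NS against WT NS, 3 members were called, and 4 by adjusted p alone, 1 without a filter on low values, 1 by voom, 1 with the replicate block by number, 0 with a fold of 2, 0 in the fit of 6 libraries, 1 without both libraries of culture 5 (an alternative added after seeing the data), and 0 to 3 with each library left out. Calls over all genes there were 524, and ranged from 7 in the fit of 6 libraries to 1964 by adjusted p alone. In TNFR2-/- St against WT St, 0 were called, 1 by adjusted p alone and 0 to 1 with each library left out, beside 325 calls over all genes, which ranged from 39 to 985. In the interaction, 0 were called under every alternative run. The median difference in response between genotypes was 0.29 on the log2 scale, and its values under other settings are not given here. The causes were not tested. Total reads were alike in all libraries, and *Bcl3* in NS is the member whose value is limited by counts.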
